A study of Mus musculus with 4 samples.

Results

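The mRNAs of the mouse proteasome were examined for IGF2BP3 binding in testes. Members were the protein-coding genes of GENCODE M21 whose symbol starts with Psm, followed by a letter from a to g and a digit, which gave 50 of 21951 protein-coding genes. A read cluster of eCLIP-seq was assigned to a member when its centre lay in the gene span on the same strand. Among the 50 genes, 49 encode subunits, regulators or assembly factors of the proteasome, and Psmc3ip, which encodes a partner of the meiotic recombinases, matches by symbol only.

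The proteasome degrades proteins that carry ubiquitin chains. Its core particle is a barrel of alpha and beta rings with the proteolytic sites inside, and a regulatory particle with an ATPase ring unfolds substrates and feeds them in. Germ cells use specialised forms of it: PSMA8 replaces PSMA7 in the alpha ring of meiotic and later cells, and the activator PSME4 (PA200) takes part in the removal of acetylated histones in spermatids.

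The 4 libraries came from testes of wild-type C57BL/6 mice aged 8 weeks, with 2 testes per preparation. The tissue suspension was crosslinked in 3 rounds of UV light of 254 nm, at 400 mJ/cm2 in each. Each of 2 replicates held an IGF2BP3 immunoprecipitation (IP) and a size-matched input (SMInput), which is RNA of the same lysate sequenced without the antibody. The tissue held germ cells and somatic cells, so fewer cells of a type and less RNA per cell cannot be told apart. Usable reads, worked out from the listed values, numbered 5133438 in the IP and 8706391 in the SMInput of replicate 1, and 4637612 and 16696122 in those of replicate 2.

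Markers were read as a check of the tissue. All 7 spermatid markers had clusters in either replicate, and the largest SMInput number in a cluster with known reads was 426 in replicate 1 and 665 in replicate 2, both on Prm2. The 4 spermatocyte markers held 263 and 232 clusters. Sertoli cell markers held 142 and 128 clusters, Leydig cell markers 38 and 45, and markers of peritubular and blood cells 56 and 28. The largest SMInput numbers were 169 and 236 for spermatocyte markers and 218 and 393 for Sertoli cell markers. They were 319 and 521 for Leydig cell markers and 36 and 38 for peritubular and blood cell markers, so somatic RNA was well represented. Of 4 markers of other tissues, 1 had clusters, which was Gfap with 2 in replicate 1 and 0 in replicate 2. The antibody's own target mRNA, Igf2bp3, had 39 clusters in replicate 1 and 32 in replicate 2.

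A cluster was counted as called when its log2(fold change) of IP over SMInput and its −log10(P value) were both at least 2, the rule of the study. Proteasome genes held 880 clusters in replicate 1, of which 29 were called (3.3%), beside 4.91% of all clusters in protein-coding genes of that replicate. In replicate 2 they held 647 clusters, of which 64 were called (9.89%), beside 13.1% of those in protein-coding genes. By gene, 12 members had a called cluster in replicate 1 (24%) and 26 in replicate 2 (52%), beside 26.1% and 36.8% of all protein-coding genes. In each replicate 44 members had a cluster, not the same 44, and of these 27.3% were called in replicate 1 and 59.1% in replicate 2, beside 40.8% and 62.8% of all protein-coding genes with a cluster. A called cluster in both replicates was found for 9 members (18%), beside 21.9% of protein-coding genes, and overlapping called clusters of both replicates for 5 members (10%), beside 9.33%. A paired test over the replicates gave 17 members. It asked for a mean log2(fold change) of at least 2 and an adjusted P value of at most 0.05 at overlapping clusters. Read numbers were not taken into account, and every member site with such a mean passed, so the count rests on the mean. By site, the paired test called 32 of 404 in members, beside 13638 of 83933 in all protein-coding genes, so the share was lower in members. Of the 17, Psma1, Psma4, Psmd5 and Psmd6 had no called cluster in either replicate. The shares of called members and clusters lie near or below those of all genes, except that of replicate 2 over all 50 members, which lies above. The members differed widely among themselves.

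The reads behind a call differed between the replicates. Beside a single SMInput read, a cluster needed at least 7 IP reads to be called in replicate 1 and at least 4 in replicate 2, where the SMInput library was deeper. Among called clusters of the members, 4 of 29 in replicate 1 and 40 of 64 in replicate 2 held fewer than 10 IP reads (13.8% and 62.5%), beside 29.1% and 62% of all called clusters. The median called cluster of the members had a log2(fold change) of 2.46 in replicate 1 and 2.92 in replicate 2, beside 2.85 and 3.07 over all called clusters. The lowest recovered SMInput number was 1, and clusters without an SMInput read may be among those listed with 1. Reads are given below as IP first and SMInput second, and where several clusters of the other replicate overlapped a call, the largest value is given.

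**Figure D1:**
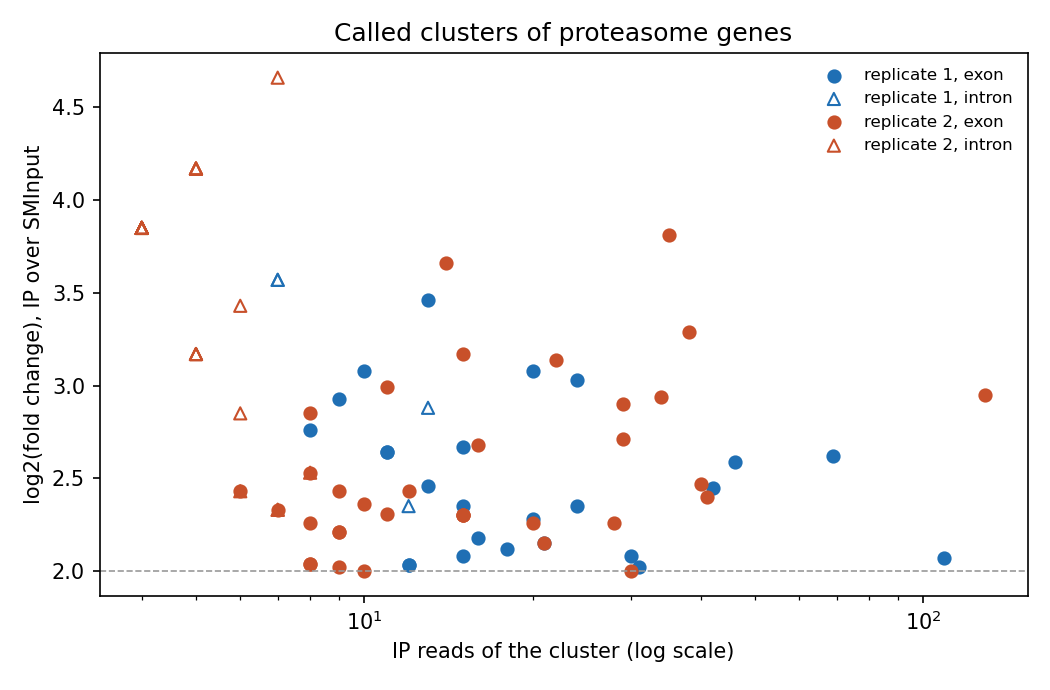
IP reads (log axis) and log2(fold change) of the 29 called clusters of replicate 1 and the 64 of replicate 2 in proteasome genes, filled circles for exons and open triangles for introns, with the call threshold of 2 dashed. Clusters with the same reads lie on top of each other. The 29 intronic clusters of replicate 2 sit at 4 to 8 IP reads, and the exonic ones reach 129.

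In the alpha ring, 1 of 8 genes was called in replicate 1 and 5 in replicate 2. Psma8, the germ cell subunit, had the called clusters with the most IP reads of all members in each replicate. Its 3'UTR, in exon 7 of 7, carried a cluster of 109 IP and 44 SMInput reads in replicate 1 and a cluster of 129 and 60 reads in replicate 2. The log2(fold change) was 2.07 in replicate 1, with a 95% exact interval of 1.55 to 2.61, and 2.95 in replicate 2, with an interval of 2.5 to 3.42. The intervals overlap and cover counting error only. The clusters share 67 bases (chr18:14762011-14762080 in replicate 1 and chr18:14762014-14762125 in replicate 2, mm10, plus strand), and their centres lie 607 and 631 bases after the stop codon. A second site of the same 3'UTR was called in both replicates as well, at log2(fold change) values of 2.45 from 42 and 13 reads and 2.71 from 29 and 16 reads. An intronic cluster of Psma8 in replicate 2 rested on 4 IP reads.

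Psma7, the subunit that PSMA8 replaces, had 9 clusters in replicate 1 and 6 in replicate 2 and none was called. Its largest SMInput number in a cluster was 3 in replicate 1 and 17 in replicate 2, against 99 and 141 for Psma8. These are numbers per cluster, not per length, and so do not rank expression. Psma1 and Psma4 had clusters and no call. A site of each had a mean log2(fold change) of at least 2 and so passed the paired test, which rests on that mean. The values there were 3.08 and 1.85 for Psma1 and 2.18 and 2.17 for Psma4, replicate 1 first. Psma2 was called in replicate 2 in its coding sequence (CDS), at 2.33 from 7 and 5 reads. The calls of Psma3, Psma5 and Psma6 in replicate 2 all lay in introns and held 4 to 8 IP reads.

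In the beta ring, 3 of 7 genes were called in replicate 1 and 5 in replicate 2. Among the catalytic subunits, Psmb5 (the chymotrypsin-like site) had 3 clusters in each replicate and no call. Psmb6 (the caspase-like site) had 2 called CDS clusters in replicate 1, the larger at a log2(fold change) of 3.46 from 13 and 2 reads, and 1 in replicate 2, at 2.3 from 15 and 11 reads. The called clusters of Psmb6 in the replicates did not overlap. At the site of 3.46 in replicate 1, the overlapping cluster of replicate 2 had a log2(fold change) of 1.36 from 15 and 21 reads.

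Psmb7 (the trypsin-like site) had 4 called clusters in replicate 1 and 2 in replicate 2. A CDS site in exon 4 of 8 was called in both, on chr2:38640172-38640214 in replicate 1 and chr2:38640169-38640217 in replicate 2 (mm10, minus strand). The log2(fold change) there was 2.64 from 11 and 3 reads, with an interval of 0.72 to 5.12, and 2.3 from 15 and 11 reads, with an interval of 1.08 to 3.56. After Benjamini-Hochberg adjustment of the P values, none of the 4 calls of Psmb7 in replicate 1 stayed at or under 0.05, and the adjusted P value at the exon 4 site was 0.0644. At 2 other called CDS sites of replicate 1, the replicate 2 clusters were just under the threshold, at 1.98 and 1.95. Psmb1, Psmb3 and Psmb4 were called in replicate 2 alone, Psmb1 in an intron at 2.33 from 7 and 5 reads, and Psmb3 and Psmb4 in the CDS at 2.31 and 2.26. Psmb2 was called in replicate 1 alone, at an intronic cluster of 2.88.

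The immunoproteasome subunits Psmb8, Psmb9 and Psmb10, which replace the catalytic beta subunits mainly in immune cells, had no cluster in either replicate. Psmb11, the subunit of the thymus, had 2 clusters in replicate 1 and 0 in replicate 2, and none was called. Psmg3, an assembly chaperone of the core particle, was the remaining member of the 4 without a cluster.

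The ATPase ring was called in 2 of 6 genes in replicate 1 and 3 in replicate 2, with 1 gene in both and no overlapping pair. Psmc2 was that gene, with a CDS cluster in replicate 1 at 2.35 from 15 and 5 reads and a 5'UTR cluster in replicate 2 at 2.02 from 9 and 8 reads. At the CDS site, replicate 2 had a cluster at 1.96 from 13 and 12 reads. Psmc5 was called in replicate 1 in its CDS at 2.18. Psmc1 was called in replicate 2 in an intron from 4 reads, at an adjusted P value of 0.0504, and Psmc6 in replicate 2 in an intron and in its 3'UTR, the latter at 2.21 from 9 and 7 reads. Psmc3 had 24 and 20 clusters and Psmc4 had 4 and 12, and neither was called.

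The non-ATPase subunits of the regulatory particle form its base scaffold and its lid, with the ubiquitin receptor PSMD4 and the deubiquitinase PSMD14 among them. Of 11 genes, 3 were called in replicate 1 and 8 in replicate 2. Psmd11, a lid subunit, had the only site in this group called in both replicates. It lies in the 3'UTR, 376 and 377 bases after the stop codon, on chr11:80472063-80472106 in replicate 1 and chr11:80472067-80472104 in replicate 2 (mm10, plus strand). The log2(fold change) was 2.46 from 13 and 4 reads, with an interval of 0.77 to 4.54, and 2.43 from 12 and 8 reads, with an interval of 1.02 to 3.93. Another 3'UTR cluster of Psmd11 in replicate 2 held 40 and 26 reads at 2.47, and the overlapping cluster of replicate 1 reached 1.35.

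Psmd1, a scaffold subunit, was called in both replicates at different sites. Its cluster of replicate 1 lay in the CDS of exon 11 at 3.08 from 10 and 2 reads. All 5 of replicate 2, some of them touching end to end, lay in introns with 4 or 5 IP reads. The adjusted P value was 0.0504 at those with 4 IP reads and 0.0453 at those with 5. Psmd2, the other large scaffold subunit, had a called CDS cluster in replicate 2 at 2.0 from 30 and 27 reads, which was 1.99 with 1 read added to each, and 0.64 in replicate 1. Psmd8 was called in replicate 2 at 2.15 from 21 and 17 reads, and had 0.72 in replicate 1. The called cluster, 74 bases wide, spans the stop codon, with its centre in the 3'UTR 7 bases after that codon. Psmd14 had 4 called clusters in replicate 2, 3 of them in introns. After adjustment an intronic call at 0.0453 alone stayed, and its 3'UTR call had 0.052. Psmd3 was called in replicate 2 in its CDS and in an intron, Psmd4 and Psmd12 in introns of replicate 2, and Psmd13 in introns of replicate 1. No call of Psmd12 or Psmd13 stayed after adjustment, with values of 0.0504 at both calls of Psmd12 and 0.0581 and 0.0847 at those of Psmd13. Psmd6 and Psmd7 were not called.

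Of the assembly chaperones of the regulatory particle, Psmd9 was called in replicate 2 from 4 and 1 reads in an intron, at an adjusted P value of 0.0504, and Psmd5 and Psmd10 were not called. Psmd10 had 0 clusters in replicate 1 and 4 in replicate 2. Of those of the core particle, Psmg2 was called in replicate 2 at 2.21 from 9 and 7 reads, and Psmg1 and Psmg4 were not called. Psmc3ip had 8 and 9 clusters and no call.

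Among the activators, all calls lay on Psme3 and Psme4, the members with the most called clusters, 14 each over both replicates. Together these genes held 10 of the 29 called clusters of replicate 1 and 18 of the 64 of replicate 2. Psme3 encodes the nuclear activator PA28gamma. All 5 of its called clusters in replicate 1 and 8 of 9 in replicate 2 lay in the 3'UTR of exon 11 of 11. The pair with the largest smaller value of any member lay on chr11:101323259-101323318 in replicate 1 and chr11:101323243-101323297 in replicate 2 (mm10, plus strand). Its log2(fold change) was 3.03 from 24 and 5 reads, with an interval of 1.61 to 4.77, and 2.9 from 29 and 14 reads, with an interval of 1.93 to 3.93. Upstream, a cluster of replicate 1 at 2.02 from 31 and 13 reads met a cluster of replicate 2 at 3.81 from 35 and 9 reads, with intervals of 1.04 to 3.07 and 2.72 to 5.05. A further called cluster of replicate 2, 993 bases after the stop codon, reached 3.29 from 38 and 14 reads, and replicate 1 had 1.91 there.

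**Figure D2:**
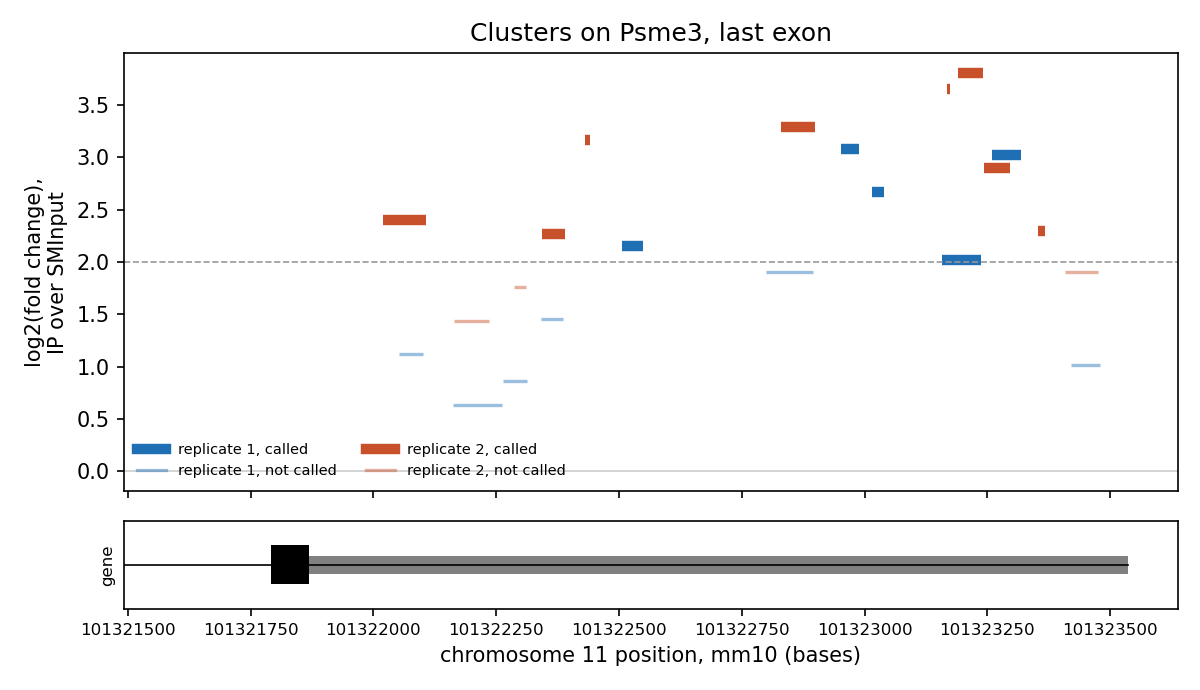
Clusters on the last exon of Psme3 along chromosome 11 (mm10 position, bases) with their log2(fold change), replicate 1 in blue and replicate 2 in orange. Thick bars are called clusters, thin bars are not called, the dashed line is the threshold of 2, and the gene is drawn below with CDS in black and 3'UTR in grey. Called clusters of both replicates overlap near the end of the 3'UTR, and called clusters further upstream in the 3'UTR do not overlap between replicates.

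Psme4 encodes PA200, the activator used in spermatids. It had 139 clusters in replicate 1 and 111 in replicate 2, of which 5 and 9 were called. Its CDS was called in both replicates at 2 sites, in exons 43 and 44 of 47. In exon 44 the clusters lay on chr11:30874116-30874180 and chr11:30874116-30874216 (mm10, plus strand), at 2.28 from 20 and 7 reads, with an interval of 0.98 to 3.76, and 2.94 from 34 and 16 reads, with an interval of 2.04 to 3.89. In exon 43 the values were 2.03 from 12 and 5 reads, with an interval of 0.42 to 3.88, and 3.14 from 22 and 9 reads, with an interval of 1.96 to 4.44, and the adjusted P value of the call in replicate 1 was 0.127. The cluster with the most IP reads lay in the 3'UTR, 209 bases after the stop codon, at 2.62 from 69 and 19 reads in replicate 1. In replicate 2 the overlapping cluster had 68 and 65 reads and a log2(fold change) of 1.91, under the threshold. The 4 intronic calls of Psme4 in replicate 2 held 4 to 6 IP reads.

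The other activators were not called. Psme1 had 2 and 1 clusters, Psme2 had 4 and 0 and Psme2b had 0 and 2. The PA28alpha and PA28beta subunits of Psme1 and Psme2 are best known from immune cells. The inhibitor gene Psmf1 (PI31) was called in both replicates without an overlapping pair. In replicate 1 its 3'UTR cluster reached 2.59 from 46 and 13 reads and its counterpart in replicate 2 had 1.42 from 38 and 51 reads. In replicate 2 its CDS cluster in exon 2 reached 2.68 from 16 and 9 reads, against 1.9 from 11 and 5 reads in replicate 1. Its other CDS call of replicate 2, in exon 1, had 2.53 from 8 and 5 reads, and the cluster of replicate 1 there had 2.57 from 7 and 2 reads and missed the call at a −log10(P value) of 1.8.

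Over the members, called clusters lay in 3'UTRs in 12 of 29 cases in replicate 1 (41.4%, 95% exact interval 23.5% to 61.1%) and in 18 of 64 in replicate 2 (28.1%, 17.6% to 40.8%). Psme3 alone supplied 5 of the 12 and 8 of the 18, and without it the shares were 29.2% and 18.2%. Among all called clusters of protein-coding genes the shares were 44.8% and 38%. Clusters of the same genes that were not called lay in 3'UTRs in 7.4% and 7.89% of cases. The CDS held 44.8% and 25% of the called member clusters, beside 29.4% and 21.1% of all called clusters and 51% and 60.2% of the member clusters that were not called. Introns held 4 of 29 in replicate 1 and 29 of 64 in replicate 2 (13.8% and 45.3%), beside 23.2% and 38.9% of all called clusters and 39.8% and 29.3% of the member clusters that were not called.

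In replicate 1 the 4 intronic calls held 7 to 13 IP reads and the 25 exonic calls 8 to 109, so their ranges overlap. The 29 intronic calls of replicate 2 came from 15 genes and all held fewer than 10 IP reads, 19 of them beside 1 SMInput read, and none met a called cluster of replicate 1. A log2(fold change) of 3.85 from 4 and 1 reads, the most common pair, has an exact interval of 0.51 to 9.47. Of the 17 members called in replicate 2 alone, 8 had no called cluster outside introns. The median exonic call held 16 IP reads in the first replicate and 15 in the other. Of these exonic calls, 8 of 25 and 9 of 35 met a called cluster of the other replicate. Overlaps of intronic and exonic calls were not compared with those of all genes, so they describe the members only. All 9 overlapping pairs lay in exons, 6 in 3'UTRs and 3 in CDS, and in all 9 the exact intervals of the replicates overlapped. The pairs were picked for passing in both replicates and many intervals are wide. Such overlap was therefore likely beforehand and does not measure agreement of the replicates.

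Windows of 100 bases around called clusters were searched on their strand for GAACA and AAACC, which the study names, and for GGAC, the core of the m6A consensus. In CDS windows, GAACA was present in 2 of 13 in replicate 1 and 6 of 16 in replicate 2 (15.4% and 37.5%), beside 10.5% and 10.7% of all called CDS windows. In 3'UTR windows it was present in 1 of 12 and 1 of 18 (8.33% and 5.56%), beside 8.31% and 7.74%. AAACC was present in 2 of 12 and 3 of 18 3'UTR windows (16.7% in each), beside 8.7% and 8.43%, and in 0 of 13 and 1 of 16 CDS windows (0% and 6.25%), beside 9.64% and 8.51%. GGAC was present in 8.33% and 11.1% of member 3'UTR windows, beside 25% and 23.4%, and in 38.5% and 31.2% of CDS windows, beside 29.6% and 29.3%. Of the 8 CDS windows with GAACA, 2 lay at a site called in both replicates, as did 1 of the 5 3'UTR windows with AAACC. No window of a Psma8 call held any of the 3 motifs. The windows are few and some overlap, so these shares are descriptions only.

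Stretches of 30 bases were centred on the bases shared by each overlapping pair of calls of Psmb7, Psmd11, Psme3 and Psme4, and 2 of these 7 held a motif. The 2 pairs of Psma8 were not read in this way. Printed are 4 of the 7, 1 for each gene, from the GRCm38 genome, 5' to 3' on the strand of the gene, with any of the 3 motifs in capitals.
Psme4 exon 43 CDS, chr11:30865561-30865590, plus strand: tatgccttttggaggatGAACAgttagagg
Psmb7 exon 4 CDS, chr2:38640179-38640208, minus strand: gtggtgctgGGACagctgcagacacagaca
Psmd11 3'UTR, chr11:80472071-80472100, plus strand: ttcagaattgggtgtttgctgaccatcaaa
Psme3 3'UTR, chr11:101323264-101323293, plus strand: cattctgtaggaaaggaggcgggatgcggg
GAACA stands in the Psme4 site and GGAC in the Psmb7 site, and the Psmd11 and Psme3 stretches hold none of the 3 motifs, nor do the 3 stretches not printed, 1 in exon 44 of Psme4 and 2 in the 3'UTR of Psme3.

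Other genes of the pathway were read from a list of proteasome partners, shuttle factors and ubiquitin processing factors. Of its 28 names, 24 matched a protein-coding gene, and 18 of these had a called cluster in replicate 1 and 20 in replicate 2, beside 26.1% and 36.8% of all protein-coding genes. All 24 had a cluster in each replicate, and of all protein-coding genes with a cluster 40.8% and 62.8% were called. In both replicates 16 of 24 were called (66.7%), and 8 of 24 had overlapping called clusters (33.3%), beside 18% and 10% of the proteasome genes and 21.9% and 9.33% of all protein-coding genes. Unlike the 24, both comparison groups include genes without any cluster, among them 4 of the proteasome genes, which widens the difference. Shares over genes with a cluster were not worked out for both replicates together, and no test was made of this difference. Ubqlnl, a ubiquilin-like gene, had the largest pair, at 4.48 from 79 and 6 reads and 5.24 from 42 and 4 reads. Nploc4, a cofactor of the unfoldase VCP, followed at 4.29 and 3.59, with clusters that shared 1 base. The shuttle factor gene Rad23b had 3.3 and 3.35, and Usp14, a deubiquitinase bound to the regulatory particle, had 2.52 and 3.17.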

How the data were processed

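IGF2BP3 eCLIP-seq of mouse testes was analysed in 2 replicates, each with an IP and an SMInput library. The authors trimmed adapters (cutadapt), removed ribosomal reads (Bowtie2), aligned to mm10 (STAR), removed PCR duplicates using molecular barcodes and ran Clipper on each replicate to define clusters. In the deposited tables, −log10 values run from 0 to 400 and give the P value of each cluster as computed by the authors. The deposited log2 values are the authors' ratios of IP to SMInput reads, scaled to library size. These columns of the authors' comparison define the calls.

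Library totals and reads per cluster were recovered as the whole numbers that return both listed values, using Fisher's exact test if an observed or expected number was under 5 and chi-square with Yates' term for larger numbers. A single solution was found for 99.962% and 99.934% of clusters listed between 0 and 400. On simulated data, 99.6% of 1239 and 98.97% of 1353 clusters were recovered. Clopper-Pearson 95% intervals on recovered reads cover counting error only. Regions came from basic GENCODE M21 transcripts, 3'UTR before CDS, 5'UTR and intron. Regions and distances from the stop codon were taken at the cluster centre. Overlap meant at least 1 base on the same strand. Python 3.11.15, SciPy 1.17.1 and samtools 1.23.1 were used.

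Described with values were the members with overlapping calls, those with the most called clusters, specialised members, members without a cluster, and the 5 pathway genes with the largest smaller log2(fold change), of which 1 is not reported here. Values of other called members were added after they were seen. Members and lists were chosen with earlier results of these data known. The labels describe the input as a retained part of the IP lysate, which pairs the libraries. Deviations of IP and SMInput between the replicates correlated at 0.42 over all sites with clusters in both replicates and 0.1 over the 184 sites with the same ends. A paired test over the replicates was made as an alternative only.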

Additional observations from a re-analysis of the deposited data

How the results depend on the processing

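With both thresholds at 3, called clusters fell to 3 in replicate 1 and 6 in replicate 2, 1 gene was called in both and 0 had overlapping calls. The 3'UTR share was then 66.7% in either replicate. Every 3'UTR call at these thresholds lay on Psme3, so this share describes that gene alone. Lowering the log2(fold change) threshold to 1, the clusters were 78 and 138, with 16 genes called in both and 11 overlapping. Benjamini-Hochberg adjustment left 19 clusters in replicate 1 and 49 in replicate 2, with 8 genes called in both and 4 overlapping. Among those lost were every call of Psmc1, Psmd9, Psmd12 and Psmd13, all 4 of Psmb7 in replicate 1 and the replicate 1 call of Psme4 exon 43, and 7 of 9 overlapping pairs were left. Exons alone left 35 clusters in replicate 2, and at least 10 IP reads left 24. By the nearest transcription start site, 13 genes were called in both and 3 had overlapping calls. With a replicate left out, 12 to 26 genes were called, against 9 in both and 5 overlapping. Under exons alone and at least 10 IP reads, the count of genes with overlapping calls was 5 in each. Without Psme3, an alternative chosen after seeing the data, the 3'UTR share was 29.2% and 18.2%. Called clusters that touch end to end, as on Psmd1, Psmd12 and Psme3 in replicate 2, were counted separately. With touching called clusters joined, the 3'UTR share was 41.4% in replicate 1 and 27.9% in replicate 2. The cause of these changes was not tested.

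Adding 1 read to IP and SMInput took 4 called clusters of replicate 1 and 2 of replicate 2 under a log2(fold change) of 2, among them those of replicate 1 in Psme4 exon 43 (1.88) and in the upstream Psme3 site (1.95), and the only call of Psmd2 (1.99). Of 9 overlapping pairs 6 stayed above it in both replicates, from 5 genes. Ranked by the smaller IP read number, 5 of 5 genes with overlapping calls changed rank. With the replicate as a block, an alternative chosen after seeing the data, 17 genes had a passing site, against 5 with overlapping calls. Such a site had clusters in both replicates, a mean log2(fold change) of at least 2 and an adjusted P value of at most 0.05. By site, 32 of 404 passed in members, a lower share than the 13638 of 83933 in all protein-coding genes. This paired fit was a moderated t-test with 1 residual degree of freedom that took no account of read numbers, and all 32 member sites with such a mean passed it, so the count rests on the mean. A gene without a called cluster is not shown to be unbound.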
